A study of Mus musculus with 6 samples.

Results

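Gm26083 and Mir1839-201 are mouse small Cajal body RNAs (scaRNAs) that lie, base for base, inside longer non-coding transcripts, the lincRNAs Snhg20 and 2900076A07Rik. Every transcript of these 4 genes in the deposited table of exosomal ncRNA counts was taken by its gene name in the GENCODE mouse annotation (release 21), which gave 16 of 5880 transcripts, here also called rows. There were 7 rows of Snhg20, 6 of 2900076A07Rik, 1 of Gm26083 and 2 of Mir1839, namely the scaRNA Mir1839-201 and the miRNA hairpin Mir1839-202. Only 6 of the 16 held at least 15 counts over all libraries and entered the statistical fit, 3 held 1 count and 7 held none. The genes were chosen by their counts and unique counts in this same comparison, so their differences between groups are described below with no p-value.

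UD-P19 are undifferentiated cells of a mouse embryonal carcinoma line. P19N are neurons obtained from the same line with retinoic acid and grown in serum-free neuronal medium. By the study's methods the P19N cultures also received 5-fluorouridine and uridine to stop proliferation, which is not described for UD-P19, so that this exposure and differentiation cannot be told apart. The sample labels record no drug for either culture. Exosomes were pelleted from conditioned medium, that of UD-P19 after a day without serum, and 1 small RNA library was sequenced from each of 3 UD-P19 samples (replicates 1, 2 and 3) and 3 P19N samples (replicates 4, 5 and 6). Replicates 4, 5 and 6 came from P19N cultures aged 8, 10 and 12 days, so that culture age and replicate cannot be told apart. By the study's methods the exposure to 5-fluorouridine and uridine was on day 3 and again on day 8, after medium was collected. Replicate 4 thus preceded the later exposure and replicates 5 and 6 followed it, which cannot be told apart from age either. A value is an amount in purified exosomes and does not show the level in the cells, and more vesicles that carry an RNA cannot be told apart from more RNA per vesicle.

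scaRNAs are guide RNAs of the Cajal body, a compartment of the nucleus. They direct modification enzymes, the pseudouridine synthase dyskerin or the methyltransferase fibrillarin, to chosen bases of the spliceosomal snRNAs. Those of the H/ACA type fold into hairpins joined by a hinge (box H, with the letters ANANNA) and end in the letters ACA, which stand close to the 3′ end. Most mammalian guide RNAs of this kind are cut out of introns of longer host transcripts, and genes named Snhg (small nucleolar RNA host gene) are hosts whose spliced product does not code for protein. Some H/ACA RNAs also give rise to miRNA-sized fragments and are annotated a second time as miRNA hairpins.

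Both scaRNA sequences are shown, because a read from within them matches guide and host alike. They were read from the GENCODE transcripts, and capitals mark the stretches that RefSeq (GRCm38.p6) annotates as mature miRNAs. Gm26083 is 193 bases long and lies on the plus strand at chr11:117077243-117077435 (GRCm38), and Mir1839-201 is 127 bases long and lies on the plus strand at chr7:81529855-81529981 (GRCm38).
Gm26083: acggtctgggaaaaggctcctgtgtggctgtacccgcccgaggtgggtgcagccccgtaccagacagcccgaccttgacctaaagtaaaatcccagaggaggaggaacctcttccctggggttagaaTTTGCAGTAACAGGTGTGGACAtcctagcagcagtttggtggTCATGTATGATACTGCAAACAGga
Mir1839: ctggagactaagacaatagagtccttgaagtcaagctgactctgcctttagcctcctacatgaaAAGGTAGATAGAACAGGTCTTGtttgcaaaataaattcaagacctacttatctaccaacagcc

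Both guides carried H/ACA features in their letters. Each ended in ACANNN, with ACA at base 188 of Gm26083 and at base 122 of Mir1839 and 3 bases after it. On the RNA strand, the only one searched, this ending was found in 19 of the 34 scaRNA rows with a sequence (55.9%), in 24.1% of 605 snoRNA rows and in 4.90% of all 5773 rows with a sequence. The letters ANANNA occurred at 3 places in Gm26083, the last of them overlapping its ACANNN end, and at 8 places in Mir1839. They were present in every scaRNA row and in 95.4% of all rows with a sequence, so that they set nothing apart. The letters TGAG, which occur in the Cajal body signal of many H/ACA scaRNAs, were found in neither guide. They were present in 76.5% of the scaRNA rows, 73.9% of the snoRNA rows and 82.6% of all rows with a sequence. The minimum free energy fold (RNAfold) of Mir1839 had 2 outer stems, from base 3 to 56 and from base 67 to 120. That of Gm26083 had 3, from base 3 to 80, from base 89 to 123 and from base 128 to 188. Predicted energies were -86.9 kcal/mol for Gm26083 and -41.2 kcal/mol for Mir1839, with a GC content of 54.4% and 40.9%.

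The 3′ part of each guide is annotated again as a miRNA hairpin. The Mir6516 hairpin (110 bases) shares 88 bases with Gm26083 and runs 22 bases past its 3′ end. The Mir1839-202 hairpin (73 bases) shares 66 bases with Mir1839-201 and runs 7 bases past it. The mature miRNAs lie wholly inside the guides, miR-6516-5p at bases 128 to 149 and miR-6516-3p at bases 170 to 191 of Gm26083, and miR-1839-5p at bases 65 to 86 of Mir1839. They are shown 5′ to 3′ from RefSeq with the seed (bases 2 to 8) in capitals, because a read of this length would match the hairpin, the guide and the host alike, and no seed is shared among them.
miR-6516-5p: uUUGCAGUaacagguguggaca
miR-6516-3p: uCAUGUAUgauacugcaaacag
miR-1839-5p: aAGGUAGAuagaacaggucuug

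In the annotation, each scaRNA is exonic in some transcripts of its host and intronic or absent in others. Gm26083 takes up bases 245 to 437 of the 459-base Snhg20-201, within exon 2 of 2, which is 42.0% of that transcript. It also takes up bases 442 to 634 of the unspliced Snhg20-203 (2153 bases), or 8.96%. In the other 5 rows of Snhg20 it falls in an intron. Mir1839 takes up bases 623 to 749 of the 914-base 2900076A07Rik-201, within exon 2 of 2, or 13.9%. It is intronic in 1 further row of 2900076A07Rik and lies outside the remaining 4.

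Counts followed this position. Snhg20-201 held 2017 counts over the 6 libraries and Snhg20-203 held 2030, whereas the 5 Snhg20 rows without Gm26083 in an exon held 1 count together. These 5 rows share between 95 and 204 of the 266 bases of Snhg20-201 that lie outside Gm26083. 2900076A07Rik-201 held 532 counts, against 2 counts in the 5 rows of that gene without the scaRNA, which share between 59 and 322 of its 787 other bases. The host rows with at least 15 counts were thus those that contain the whole scaRNA.

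**Figure D1:**
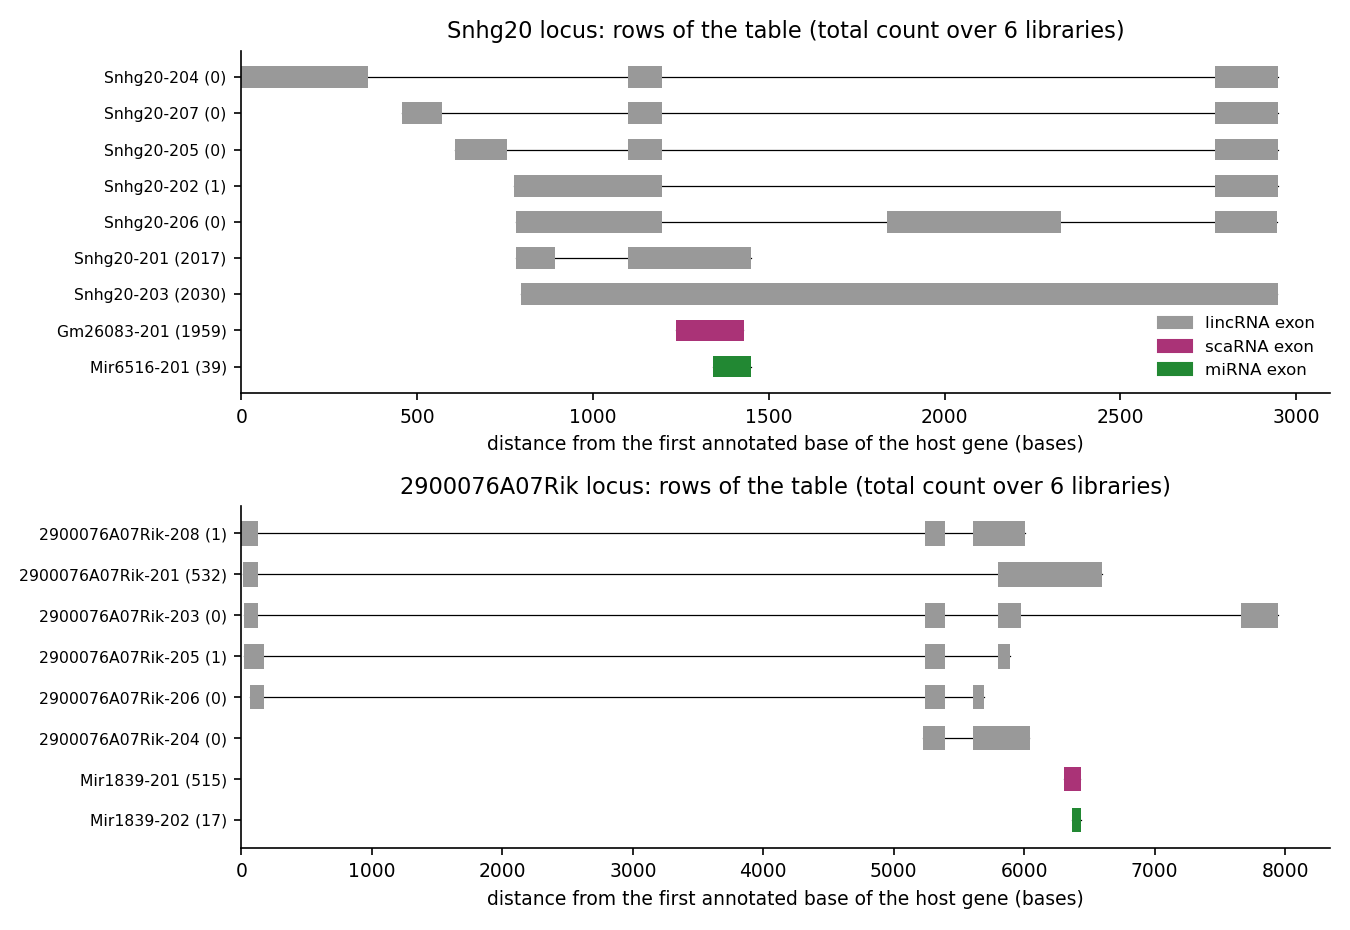
Annotated transcripts of both loci, with exons as boxes and introns as lines against the distance in bases from the first annotated base of the host gene (grey for lincRNA, purple for scaRNA, green for miRNA hairpin), and the total count over 6 libraries in parentheses. Host rows with over 1 count are those whose exons contain the scaRNA: Snhg20-201 (2017), Snhg20-203 (2030) and 2900076A07Rik-201 (532).

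Before the levels, the libraries were compared. Total counts were between 454499 and 887460 per library. UD-P19 replicate 2 stood apart from the other UD-P19 libraries. Its ncRNAs related to neurons, 8 of 11 listed genes with counts and mostly Meg3, summed to 81 counts, while UD-P19 replicates 1 and 3 had 3 and 14 and the P19N libraries between 42 and 102. Of 14 pluripotency-related genes 6 were in the table, with 13 counts in that library and between 0 and 4 in the others, and listed glial, mesodermal and endodermal genes had no row. A single lincRNA annotation, Gm42418, held between 49.1% and 65.9% of counts in UD-P19 and between 16.3% and 18.2% in P19N libraries. Without it the log2 fold changes of the 4 genes kept their sign and stayed within 1 SD of the replicates, which was between 0.82 and 1.16. P-values measure the spread between these 3 libraries a group, and a count is a read and not a molecule, so intervals cover counting error only.

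The guide Gm26083 was counted in every library. It held 73, 22 and 52 counts in UD-P19 replicates 1, 2 and 3, and 733, 521 and 558 counts in P19N replicates 4, 5 and 6. Scaled to counts per 1000000 after TMM adjustment of library size (CPM), these were 179, 26.0 and 85.8 CPM in UD-P19 and 861, 687 and 776 CPM in P19N exosomes. The lowest P19N library was 3.84 times the highest UD-P19 library, so the groups did not overlap, and within UD-P19 the spread was wide, with replicate 2 lowest. Means were 96.9 ± 77.0 CPM (SD, n = 3) in UD-P19 and 775 ± 87.0 CPM (SD, n = 3) in P19N exosomes, a log2 fold change of 3.03 ± 0.564 (SE, edgeR). Without UD-P19 replicate 2 the log2 fold change was 2.77. Without UD-P19 replicate 1 it was 3.55, with a UD-P19 mean of 63.6 CPM.

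The counted Snhg20 transcripts showed the levels of Gm26083 almost library for library. Snhg20-201 held 73, 23 and 64 counts in UD-P19 replicates 1, 2 and 3 and 739, 537 and 581 counts in P19N replicates 4, 5 and 6. Snhg20-203 held 79, 27 and 56 counts in the former and 743, 541 and 584 counts in the latter. Neither overlapped between groups, and UD-P19 replicate 2 was again the lowest library. Snhg20-201 averaged 104 ± 75.8 CPM (SD, n = 3) in UD-P19 and 795 ± 80.8 CPM (SD, n = 3) in P19N exosomes. The log2 fold change was 2.96 ± 0.554 (SE), or 2.70 without UD-P19 replicate 2 and 3.34 without UD-P19 replicate 1. For Snhg20-203 the log2 fold change was 2.94 ± 0.546 (SE).

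Mir1839-201 was sparse in UD-P19 exosomes. It held 5, 0 and 11 counts in UD-P19 replicates 1, 2 and 3, and 229, 180 and 90 counts in P19N replicates 4, 5 and 6. In CPM these were 12.2, 0 and 18.2 in UD-P19 and 269, 237 and 125 in P19N exosomes. A count of 0 in UD-P19 replicate 2 allows up to 3 counts, or 3.55 CPM. The groups did not overlap, and the 12-day-old culture (replicate 6) was the lowest of the P19N libraries. Means were 10.1 ± 9.26 CPM (SD, n = 3) and 211 ± 75.6 CPM (SD, n = 3), with a log2 fold change of 4.45 ± 0.790 (SE). This value rested on few UD-P19 reads: it was 3.90 without UD-P19 replicate 2 and 5.22 without UD-P19 replicate 3. The UD-P19 mean without replicate 3 was 6.65 CPM.

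Its host followed closely. 2900076A07Rik-201 held 5, 2 and 10 counts in UD-P19 replicates 1, 2 and 3, and 238, 184 and 93 counts in P19N replicates 4, 5 and 6. Every P19N library exceeded every UD-P19 library by at least 7.84 times, with the 12-day-old culture again lowest among P19N. The means of 10.4 ± 7.25 CPM (SD, n = 3) and 217 ± 78.3 CPM (SD, n = 3) gave a log2 fold change of 4.44 ± 0.654 (SE). It was 4.03 without UD-P19 replicate 2 and 4.85 without UD-P19 replicate 3.

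**Figure D2:**
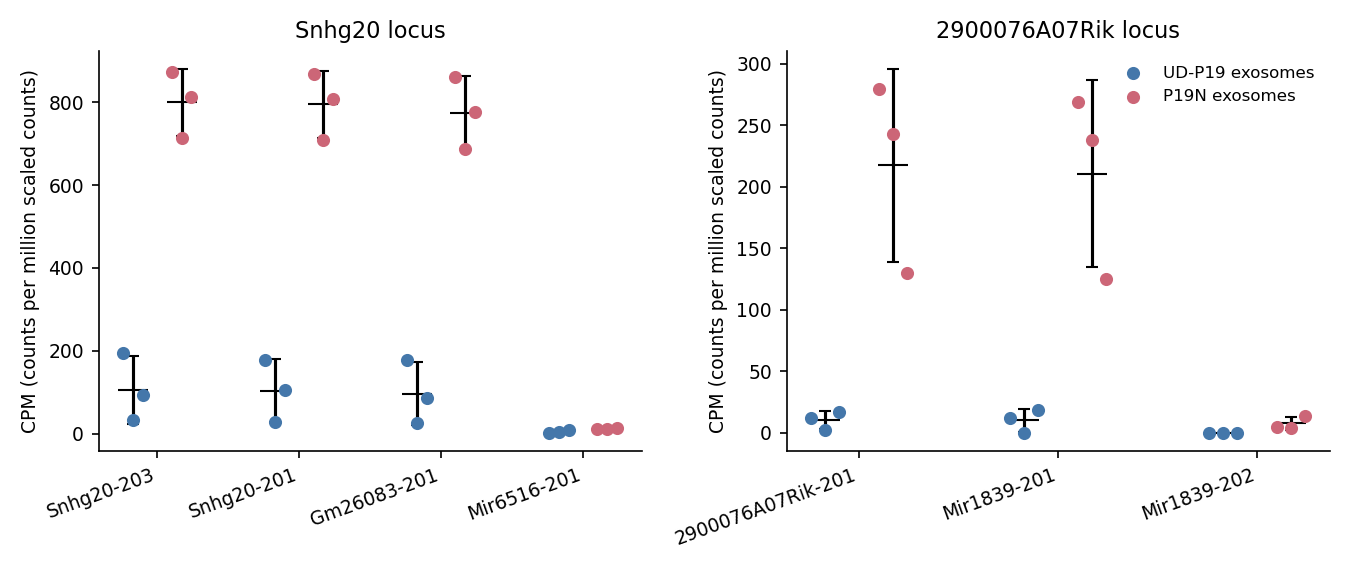
CPM of each counted row, one point per library, for the Snhg20 locus (left) and the 2900076A07Rik locus (right), UD-P19 exosomes in blue and P19N exosomes in red, with the mean and SD of 3 libraries in black. Host and scaRNA rows sit at nearly the same height within each locus and library, except that UD-P19 replicate 2 has 2.36 CPM for 2900076A07Rik-201 and 0 for Mir1839-201. The hairpin rows lie below them in every P19N library, and in UD-P19 replicate 2 Mir1839-202 is at 0 like Mir1839-201.

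Per kilobase of transcript, the scaRNA rows stood above their hosts. In P19N exosomes the mean level was 4016 CPM per kilobase for Gm26083, 1732 for Snhg20-201 and 371 for Snhg20-203. It was 1658 CPM per kilobase for Mir1839-201 and 238 for 2900076A07Rik-201. The same order held in UD-P19 exosomes, with 502, 226 and 49.2 CPM per kilobase at the Snhg20 locus and 79.8 and 11.3 at the other. Nearly equal counts on rows of unequal length give this order by themselves.

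The hairpin rows held few of the counts at either locus. Mir6516-201, which is no row of the 4 genes but overlaps Gm26083, held 1, 4 and 5 counts in UD-P19 replicates 1, 2 and 3 and 10, 9 and 10 counts in P19N replicates 4, 5 and 6. Its CPM did not overlap between groups, but its log2 fold change of 1.21 ± 0.693 (SE) did not pass the threshold of 0.05 (edgeR quasi-likelihood test, Benjamini-Hochberg adjusted p = 0.204). Relative to Gm26083 it held 6.80% of the guide's count over UD-P19 libraries and 1.60% over P19N libraries. In single UD-P19 libraries this was 1.37%, 18.2% and 9.62%, and in P19N libraries 1.36%, 1.73% and 1.79%, so the groups overlapped narrowly and the difference was not tested.

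Mir1839-202 had no count in UD-P19 exosomes, and 4, 3 and 10 counts in P19N replicates 4, 5 and 6. With 3 counts as the limit that a count of 0 allows, no fold is given. Its count was 1.75%, 1.67% and 11.1% of that of Mir1839-201 in P19N replicates 4, 5 and 6, so the library lowest in the guide was highest in the hairpin row. Unique counts, read as reads that match 1 transcript only, were 0 at both hairpin rows.

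Host against guide, the counts were nearly equal. Over all libraries Gm26083 held 97.1% of the count of Snhg20-201 and 96.5% of that of Snhg20-203, and Mir1839-201 held 96.8% of the count of 2900076A07Rik-201. What the guide's count did not reach was 58 of 2017 counts at Snhg20-201 (2.88%) and 17 of 532 at 2900076A07Rik-201 (3.20%). By group this remainder was 8.13% of Snhg20-201 in UD-P19 and 2.42% in P19N exosomes, where 12 of the 13 UD-P19 counts came from replicate 3. For Snhg20-203 it was 9.26% in UD-P19 and 3.00% in P19N exosomes. There it was 7.59%, 18.5% and 7.14% in UD-P19 replicates 1, 2 and 3, from 6, 5 and 4 counts, and 1.35%, 3.70% and 4.45% in P19N replicates 4, 5 and 6. On exact counts, read as reads without a mismatch, the remainder at Snhg20-203 was -5.88%, 21.1% and 4.88% in UD-P19 replicates 1, 2 and 3 and 2.11%, 2.23% and 2.54% in P19N replicates 4, 5 and 6, or 2.70% and 2.28% by group. The groups thus overlapped at Snhg20-203 on exact counts, as they did at Snhg20-201 on all counts, and the differences rest on few UD-P19 counts. For 2900076A07Rik-201 the remainder was 1 of 17 counts in UD-P19 and 16 of 515 counts in P19N exosomes.

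The guide's count was not the lower one in every library. In UD-P19 replicate 3 Mir1839-201 held 11 counts and its host 10, and on exact counts Gm26083 held 54 in UD-P19 replicate 1 against 51 at Snhg20-203. How reads that match several rows were counted is not given in the sources used here. A remainder is therefore a difference between rows, and was not resolved into reads from inside and outside the guide.

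Unique counts were then compared. They and the exact counts come from columns whose headers add the words mature 5′, a miRNA term that is not explained for these transcripts, and each share below divides such a count by the expression value of the same row. None of the 2017 counts of Snhg20-201 and none of the 2030 of Snhg20-203 was unique, which allows a unique share of up to 0.183% and 0.182% (upper exact 95% limits). Snhg20-201 offers little room for a unique read, since 18 of its 440 stretches of 20 bases (4.09%) occur in no other of 40078 non-coding transcripts. Snhg20-203 offers more, with 833 of 2134 such stretches (39.0%), and still had no unique count. No unique count was found at either guide, whose every stretch of 20 bases recurs in its host.

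2900076A07Rik-201 did have unique counts. There were 0, 1 and 1 in UD-P19 replicates 1, 2 and 3 and 9, 10 and 3 in P19N replicates 4, 5 and 6, or 24 of 532 in all (4.51%, exact 95% binomial interval 2.91 to 6.64). As raw counts, every P19N library exceeded every UD-P19 library. The count of 0 in UD-P19 replicate 1 allows 3 counts, or 7.35 CPM. That is above the 4.17 CPM of the 3 counts in P19N replicate 6, so the groups were not separated. Of its 895 stretches of 20 bases, 454 (50.7%) occur in no other non-coding transcript. On unique counts alone its log2 fold change was 3.01 ± 0.944 (SE), against 4.44 on all counts, with 2 unique counts in UD-P19 exosomes behind it.

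The difference in fold change between the loci was not tested. Summed over the rows that overlap each guide, the log2 fold change was 2.95 ± 0.526 (SE) at the Snhg20 locus and 4.46 ± 0.685 (SE) at the 2900076A07Rik locus, a sum chosen after the counts were seen. The second locus held 4.42%, 2.63% and 11.9% of the count of the first in UD-P19 replicates 1, 2 and 3, and 21.2%, 22.8% and 11.1% in P19N replicates 4, 5 and 6. P19N replicate 6 thus fell below UD-P19 replicate 3, and the ranges overlapped. The sums hold 3 rows with the whole guide at the Snhg20 locus and 2 at the other, so these percentages may depend on the number of rows. Guide against guide, Mir1839-201 held 6.85%, 0% and 21.2% of the count of Gm26083 in UD-P19 replicates 1, 2 and 3. In P19N replicates 4, 5 and 6 it held 31.2%, 34.5% and 16.1%, and the ranges overlapped again. Over the 6 libraries the log2 CPM of both guides had a Pearson correlation of 0.965. The step between the groups was not separated from the spread within them.

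Among all tested transcripts, those nearest in pattern to the guides were other small non-coding RNAs. For Gm26083 the highest correlations of log2 CPM over 6 libraries, among 1273 rows of other genes, were with the snRNA Gm25514 (0.988), Rmrp, the RNA of the mitochondrial RNA processing endoribonuclease (0.986), the snRNA Gm25189 (0.984), the snoRNA Gm22680 (0.983) and the scaRNA Scarna3b (0.982). For Mir1839 they were with the snoRNAs Gm25776 (0.997), Gm22486 (0.994) and Mir677 (0.992) and the snRNAs Gm23744 (0.990) and Gm24136 (0.986). With so few points, which share library, depth and group, 43 rows passed 0.95 for Gm26083 and 59 for Mir1839, and the ranks carry little weight. Their changes ranged from a log2 fold change of 0.90 for Gm22680 to 4.90 for Gm25189.

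All 6 rows of the 4 genes that entered the fit were higher in every P19N library than in every UD-P19 library, beside 25.2% of the 1286 rows tested. Among the 6, Mir1839-202 had no UD-P19 count and so entered the fit through its P19N counts. In UD-P19 replicate 1 a count of 0 allows 7.35 CPM, above its 4.70 and 3.96 CPM in P19N replicates 4 and 5. Over all tested rows 24% were called at an adjusted p of 0.05 (edgeR quasi-likelihood test), 15% higher and 9.02% lower in P19N exosomes, or 193 and 116 rows. This balance turned under other settings and without single libraries. With rows of at least 5 counts in total there were 190 higher and 207 lower calls. With the DESeq2 Wald test there were 175 and 203, and without Gm42418 174 and 196. The balance turned to 122 higher and 174 lower without UD-P19 replicate 1, to 130 and 161 without UD-P19 replicate 3, and to 105 and 117 without P19N replicate 5. It was 382 and 151 without UD-P19 replicate 2 and 124 and 75 without P19N replicate 4. Since the genes were chosen with this contrast known, and overlapping rows can match the same reads, nothing is read from the count of 6.

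Other scaRNAs mostly rose as well. Of 32 further scaRNA rows 21 were tested, of which 15 were called higher in P19N exosomes (71.4%), 1 was called lower and 5 were not called. Their median log2 fold change was 2.41 (2.19 with the 1 row at 0 in a whole group put at 3 counts per library), beside 0.21 over all tested rows. Gm26083 and Mir1839 lay within this range, with 9 of the 21 above Gm26083 and 4 above Mir1839 by fitted value. Both counts include Gm22897-201, the row at 0 in a whole group. Put at 3 counts per library it had a log2 fold change of 0.88, below both guides. The 16 calls became 9 without P19N replicate 5. With overlapping scaRNA rows summed, 13 of 18 were called, 12 higher and 1 lower.

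Single scaRNAs spanned both directions. Gm25820-202 held 8, 12 and 10 counts in UD-P19 replicates 1, 2 and 3 and 825, 595 and 230 counts in P19N replicates 4, 5 and 6, a log2 fold change of 5.37 ± 0.556 (SE, adjusted p = 2.7e-06, edgeR). Gm23370-201 rose by a log2 fold change of 5.66 ± 0.880 (SE, adjusted p = 2.6e-04, edgeR), and Gm23370-202, which lies wholly inside it, by 4.15 ± 0.736 (SE, adjusted p = 7.6e-04, edgeR). Gm22897-201 had no UD-P19 count, and 9, 12 and 2 counts in P19N replicates 4, 5 and 6. Gm22897-202, which lies wholly inside it, averaged 0.55 CPM in UD-P19 and 9.85 CPM in P19N exosomes. In Gm25820-202, Gm23370-201 and Gm22897-201 the 12-day-old culture was the lowest P19N library, as it was for Mir1839. Gm22767 went the other way, from 258, 95 and 207 counts in UD-P19 replicates 1, 2 and 3 to 137, 58 and 37 counts in P19N replicates 4, 5 and 6, and fell by 1.90 on the log2 scale (SE 0.592, adjusted p = 0.0266, edgeR). This call was lost without UD-P19 replicate 1, without P19N replicate 5 and without P19N replicate 6. Scarna13 (1.95), Gm25395 (2.03) and Gm24289 (2.05) had the smallest log2 fold changes among those called higher.

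Other snoRNA host rows had lower log2 fold changes than Snhg20. Of 102 rows of other Snhg genes and Gas5, 53 were tested, 3 were called higher (5.66%) and 8 lower, with a median log2 fold change of -0.77. Beside them, 15% of all 1286 tested rows were called higher and 9.02% lower, with a median of 0.21. Snhg20 was chosen with this contrast known, so its place above the other hosts is description only. None of the 53 lay above Gm26083. The called rows with a rise were Snhg14-206 (2.05), Snhg1-208 (1.84) and Snhg14-214 (1.74). The largest called falls were at Gas5-204 (-2.19), Gas5-207 (-2.01) and Snhg12-208 (-1.94). Gas5-204 (330 counts) and Gas5-207 (350 counts) both contain Mir5117 (347 counts) and had no unique count, so their falls may rest on the same reads. Host rows of the same gene were not merged in these counts of calls. The 11 calls became 21 without UD-P19 replicate 2, 7 without UD-P19 replicate 3 and 3 without P19N replicate 4 or 5.

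**Figure D3:**
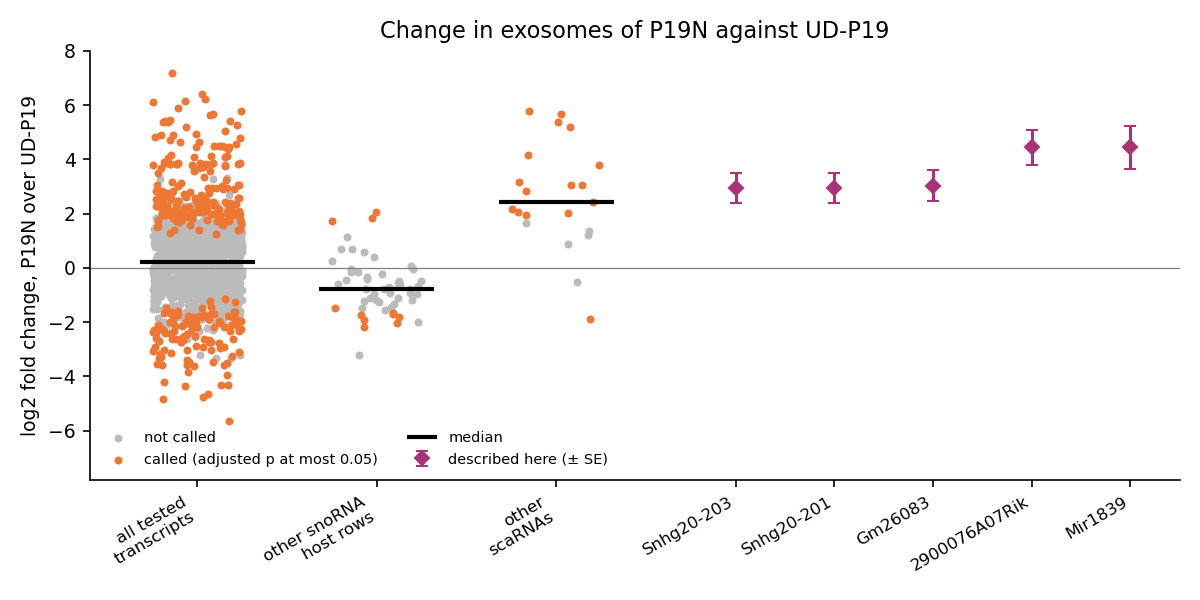
Log2 fold change of P19N over UD-P19 exosomes for all 1286 tested transcripts, other snoRNA host rows, other scaRNAs and the 5 host and scaRNA rows described here, with grey points not called, orange points called (adjusted p up to 0.05), black bars at medians and diamonds with standard errors for the rows described here. The diamonds lie between 2.94 and 4.45, within the range of other scaRNAs (median 2.41) and above every other snoRNA host row.

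Host rows whose counts were close to the summed counts of the RNAs inside them were common in the table. A small RNA lay wholly inside the exons of a longer transcript with another gene identifier, on the same strand, in 186 pairs with 133 host rows. The gene names also differed in 166 of these pairs, with 113 host rows, and in the others both rows carried the same name. Apart from the rows above, 100 host rows of 57 genes held at least 15 counts, and 59 of these had no unique count, as did both counted Snhg20 rows. Under 5% of the count was unique at 77 of the 100, as at 2900076A07Rik-201, and over 50% at 14. Over the 636 rows of the whole table with at least 100 counts, 254 had no unique count and the median unique share was 5.61%. The counts of the contained RNAs, summed even where these overlap each other, came to a median of 91.2% of the host's count (interquartile range 25 to 99.6%). This sum is not a part of the host's count and exceeded it at some hosts, with 205% at Snhg12-208. Among pairs of different gene name, a choice made after the data were seen, 82 such host rows remained, 48 had no unique count, 64 had under 5% unique and the median was 88.4%.

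The hosts with the highest counts showed both cases. Snhg1-215 held 13740 counts, of which 0.597% were unique, and Snhg1-203 held 6412 with none unique. By contrast 77.4% of the 8981 counts of 1110038B12Rik-207, the host of Snord52, were unique. Rn7s2-201 (5889 counts) and Rn7s1-201 (5835 counts) had no unique counts although the RNAs inside them held 2.16% and 2.45% of their counts, and these 7SL RNA genes are near-identical copies. A unique share of 0 was thus also found at rows whose contained RNA held few counts.

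Reads counted as exact had a share at these rows near that of the median row. They made up 75.2% of the counts of Snhg20-201, 75.6% of those of Gm26083, 75.6% of those of 2900076A07Rik-201 and 77.1% of those of Mir1839-201. The median over the 636 rows with at least 100 counts was 74.0% (interquartile range 53.0 to 79.5%). Of all counts of a library, between 44.2% (UD-P19 replicate 2) and 64.4% (P19N replicate 6) were exact, below the shares at these rows. On exact counts Mir1839-201 held 397 and its host 402, and Gm26083 held 1481 against 1516 at Snhg20-201, so near equality of guide and host held for these reads too.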

How the data were processed

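The authors trimmed adaptors, merged read pairs and counted reads per ncRNA transcript of GRCm38 in CLC Genomics Workbench. The deposited counts are whole numbers without normalization. The deposited columns named unique mature 5′ and exact mature 5′ are not defined, and were read as counts of reads matching 1 transcript only and of reads matching without a mismatch, and divided by the expression value. A further 48 per-sample columns were not used. The authors' fold changes and p-values from edgeR's exact test were not used. Of 5880 transcripts, 5773 matched GENCODE mouse release 21 by identifier.

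The genes and lists were chosen with earlier results of these data known. Rows with a total of at least 15 counts (1286) were tested with edgeR 4.0.16 (quasi-likelihood F test, TMM, Benjamini-Hochberg adjustment, called at 0.05) in R 4.3.3, with no covariate, and the fit was tested on simulated data. CPM were scaled to 1000000 after TMM adjustment of library sizes. Intervals are exact Clopper-Pearson intervals at 95%. Correlations used log2 CPM with a prior count of 2. Folding used RNAfold 2.7.2. Sequences came from GENCODE transcripts and RefSeq, and figures from matplotlib 3.10.9 in Python 3.11.15. Named transcripts were those of the 4 genes, small RNAs inside both gene spans, the 5 rows most correlated with each guide, the 3 highest and 3 lowest called fold changes of each list, and the 5 other hosts with the highest totals. Alternatives were other filters, scalings and tests (DESeq2 1.42.0 and edgeR's exact test), unique counts, exact counts, merged overlapping rows, leaving out Gm42418, and leaving out each library.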

Additional observations from a re-analysis of the deposited data

How the results depend on the processing

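Over 73 log2 fold changes of the 4 genes under 19 settings none changed sign, and 72 stayed within 1 SD of the replicates. The exception was 2900076A07Rik on unique counts (3.01). The other genes had no unique count and so no value. This SD of log2 CPM within groups was 0.95 for Snhg20 and Gm26083, 0.82 for 2900076A07Rik and 1.16 for Mir1839. It is a wide margin, above the SE of each main fold change. With overlapping rows merged, host and guide have the same value, which is counted for both. Leaving out 1 library gave between 2.70 and 3.34 for Snhg20, 2.77 and 3.55 for Gm26083, 4.00 and 4.85 for 2900076A07Rik, and 3.90 and 5.22 for Mir1839. The remainder, a difference between host and guide rows, was then between 2.36% and 4.07% of the count of Snhg20-201. At 2900076A07Rik-201 it was between 2.72% and 3.74%. On exact counts of all libraries the remainder was 2.31% and 1.24%. At 2900076A07Rik-201 the remainder of 17 counts was below the 24 unique counts, so it is not the number of reads outside the guide. In UD-P19 exosomes Mir1839-201 held 10 exact counts and its host 9. The sums of overlapping rows and the pairs of different gene name were chosen after seeing the data.

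The number of transcripts called, 309, was 127 on unique counts, where 510 rows were tested, and lay between 199 (without replicate 4) and 533 (without replicate 2). Scaling by DESeq2 size factors turned 193 higher and 116 lower calls into 178 and 189, and moved the median of all tested rows from 0.21 to 0.05 (0.34 with total counts only). Called other scaRNAs numbered between 9 (without replicate 5) and 18 against 16. The 11 called snoRNA host rows became 17 with a total of at least 5, 6 with total counts only, 19 with DESeq2, 18 on exact counts and 0 on unique counts (edgeR quasi-likelihood; 9 rows tested, 3 at an unadjusted p under 0.05, 1 called by edgeR's exact test and 0 by DESeq2). Leaving out 1 library gave between 3 (without replicate 4 or 5) and 21 (without replicate 2), and 7 without replicate 3. The cause of these shifts was not tested. Requiring 90% overlap gave 220 pairs, either strand 192 and pairs of different gene name 166, against 186. No paired analysis was possible because the groups share no replicate number. Depth limits the UD-P19 values of Mir1839-201 and its host, with 16 and 17 counts in all, and those of the hairpin rows.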
